A study of Homo sapiens with 12 samples.

Results

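Transcripts of 9 genes that the transcription factor NRF2 is known to switch on were followed in HCT116 cells from which the phosphatase regulator SDS22 can be removed. The genes were NQO1, HMOX1, GCLM, GCLC, SRXN1, TXNRD1, SLC7A11, OSGIN1 and AKR1B10. They were found by their symbol among the 58233 genes of the deposited count table, and 8 of the 9 had enough reads to be tested. NRF2, encoded by NFE2L2, is normally bound by KEAP1, which hands it to a CUL3 and RBX1 ubiquitin ligase for degradation. Oxidants and electrophiles modify cysteines of KEAP1, after which NRF2 accumulates, pairs with small MAF proteins and binds antioxidant response elements (AREs) in its target genes, where the repressor BACH1 competes with it. The targets make and recycle glutathione, keep thioredoxin reduced, and detoxify quinones and haem, and in colorectal carcinoma cells they are among the usual readouts of oxidative stress.

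HCT116 is an epithelial line from a human colorectal carcinoma. In all cells, a transgene in the AAVS1 locus makes rice TIR1 (OsTIR1) once doxycycline (Dox) is present. In the SDS22-degron line, the endogenous PPP1R7 alleles, which encode SDS22, also carried a C-terminal mAID-mClover tag, and indole-3-acetic acid (IAA) then directs the tagged protein to the proteasome. The parental line had no tag, and the degron line was expanded from colonies that survived hygromycin and G418. Each line was left untreated or received 2 µg/ml Dox and 500 µM IAA during 48 h, with 3 libraries in each of the 4 groups and 12 in all, which the labels describe as biological replicates. The untreated lines were compared, as were the treated lines. The Dox/IAA effect was estimated within each line, and the interaction is the effect in degron cells minus that in parental cells on the log2 scale. The parental line shows what Dox/IAA does without a degradable SDS22. Since the degron and parental lines differ by selection and expansion as well as by the tag, these cannot be told apart in the comparison of untreated cells.

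Each library held 12133915 to 14657508 counted reads. The epithelial markers EPCAM (263 to 306 CPM), KRT8, KRT18, KRT19, CDH1 and CDX2 were detected in all 12 libraries, while VIL1, an intestinal brush-border gene, did not exceed 0.153 CPM. The blood marker PTPRC, the endothelial marker PECAM1, ALB of hepatocytes and CHGA of neuroendocrine cells reached at most 4 reads in a library, and COL1A1, used as a fibroblast marker, lay between 9.88 and 31.8 CPM. The PPP1R7 transcript was at 40.1 to 51.2 CPM and differed by 0.12 (log2) upon Dox/IAA in degron cells (adjusted p = 0.265 by edgeR's quasi-likelihood F test). SDS22 is removed as a protein, so its transcript does not check the depletion.

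Promoter windows, in which NRF2 motifs can be sought, were read from RefSeq (GRCh38.p14), which held 7 windows for 6 of the genes (NQO1, GCLM, GCLC, SRXN1, TXNRD1 and OSGIN1). Each window runs from 250 bases before the start of transcription to 50 bases after it, 5′ to 3′ along the gene. They were searched on both strands for the ARE core TGACNNNGC and for TGANTCAGC, a form that small MAF proteins and their CNC partners can bind. The letters can overlap between both motifs in principle. The windows below are shown because they hold a match, which is in capitals, and belong to genes that differ in how they responded.

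GCLM, chr1:93909381-93909680, minus strand: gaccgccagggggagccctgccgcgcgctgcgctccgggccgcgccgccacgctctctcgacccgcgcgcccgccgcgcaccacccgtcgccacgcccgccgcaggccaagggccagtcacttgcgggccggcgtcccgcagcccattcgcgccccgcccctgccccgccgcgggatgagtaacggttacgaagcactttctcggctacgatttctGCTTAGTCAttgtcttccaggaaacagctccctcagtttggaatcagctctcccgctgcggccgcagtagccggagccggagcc
TXNRD1, chr12:104215529-104215828, plus strand: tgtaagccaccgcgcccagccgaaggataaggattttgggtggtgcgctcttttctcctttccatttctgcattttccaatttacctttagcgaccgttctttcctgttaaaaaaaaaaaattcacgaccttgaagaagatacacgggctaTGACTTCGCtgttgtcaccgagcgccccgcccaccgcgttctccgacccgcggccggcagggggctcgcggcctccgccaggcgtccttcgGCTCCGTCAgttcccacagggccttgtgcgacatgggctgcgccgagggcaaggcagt
OSGIN1, chr16:83952990-83953289, plus strand: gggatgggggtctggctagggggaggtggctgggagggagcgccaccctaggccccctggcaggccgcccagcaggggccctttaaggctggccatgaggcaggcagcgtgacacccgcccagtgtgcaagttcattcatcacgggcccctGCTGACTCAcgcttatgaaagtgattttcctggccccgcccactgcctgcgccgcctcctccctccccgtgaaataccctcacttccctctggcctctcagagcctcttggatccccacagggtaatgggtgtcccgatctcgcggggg

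The GCLM window had TGACTAAGC on the opposite strand, 34 to 26 bases before the start. TXNRD1 had TGACTTCGC on its own strand, 99 to 91 bases before the start, and TGACGGAGC on the opposite strand, which ended at the start. A second TXNRD1 window, farther into the gene, had TGACAAAGC 102 to 94 bases before its start. OSGIN1 had TGAGTCAGC on the opposite strand, 99 to 91 bases before a start that lies inside the gene as the deposited table delimits it. The ARE core was thus found in 3 of 7 windows (42.9%), both TXNRD1 windows among them, against 13.3% of 35116 windows of all genes. It was in 33.3% of 39 windows of other NRF2 targets, and in 33.3% of 27 windows of amino acid response genes. TGANTCAGC was in 1 of 7, against 1.36%. GCGTG, sought as the core motif of the aryl hydrocarbon receptor and not marked above, was in 6 of 7 (85.7%), against 36.5%. These are matches of letters and do not show binding.

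Levels can be compared between genes only per length. The mean over the 12 libraries, in CPM per kb of the deposited gene length, was 137 for NQO1, a quinone reductase, and 73.4 for TXNRD1, the cytosolic thioredoxin reductase. The ranges over libraries of these genes (117 to 183 and 63.8 to 85.1 CPM per kb) did not meet each other or those of the other members. SLC7A11 (12.4), GCLC (9.71), HMOX1 (8.89) and GCLM (8.14 CPM per kb) followed, with ranges that overlapped each other. OSGIN1 had 5.97 CPM per kb, with a range of 3.73 to 8.29 that overlapped those of GCLM, HMOX1, SLC7A11 and GCLC. SRXN1, at 2.11 CPM per kb, stayed below OSGIN1 in all libraries, and AKR1B10 came last at 0.104 CPM per kb. Between the groups, the means of log2 CPM spanned 1.16 for GCLM, 0.92 for SLC7A11 and 0.70 for OSGIN1, but at most 0.28 for the other 5 tested members.

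**Figure D1:**
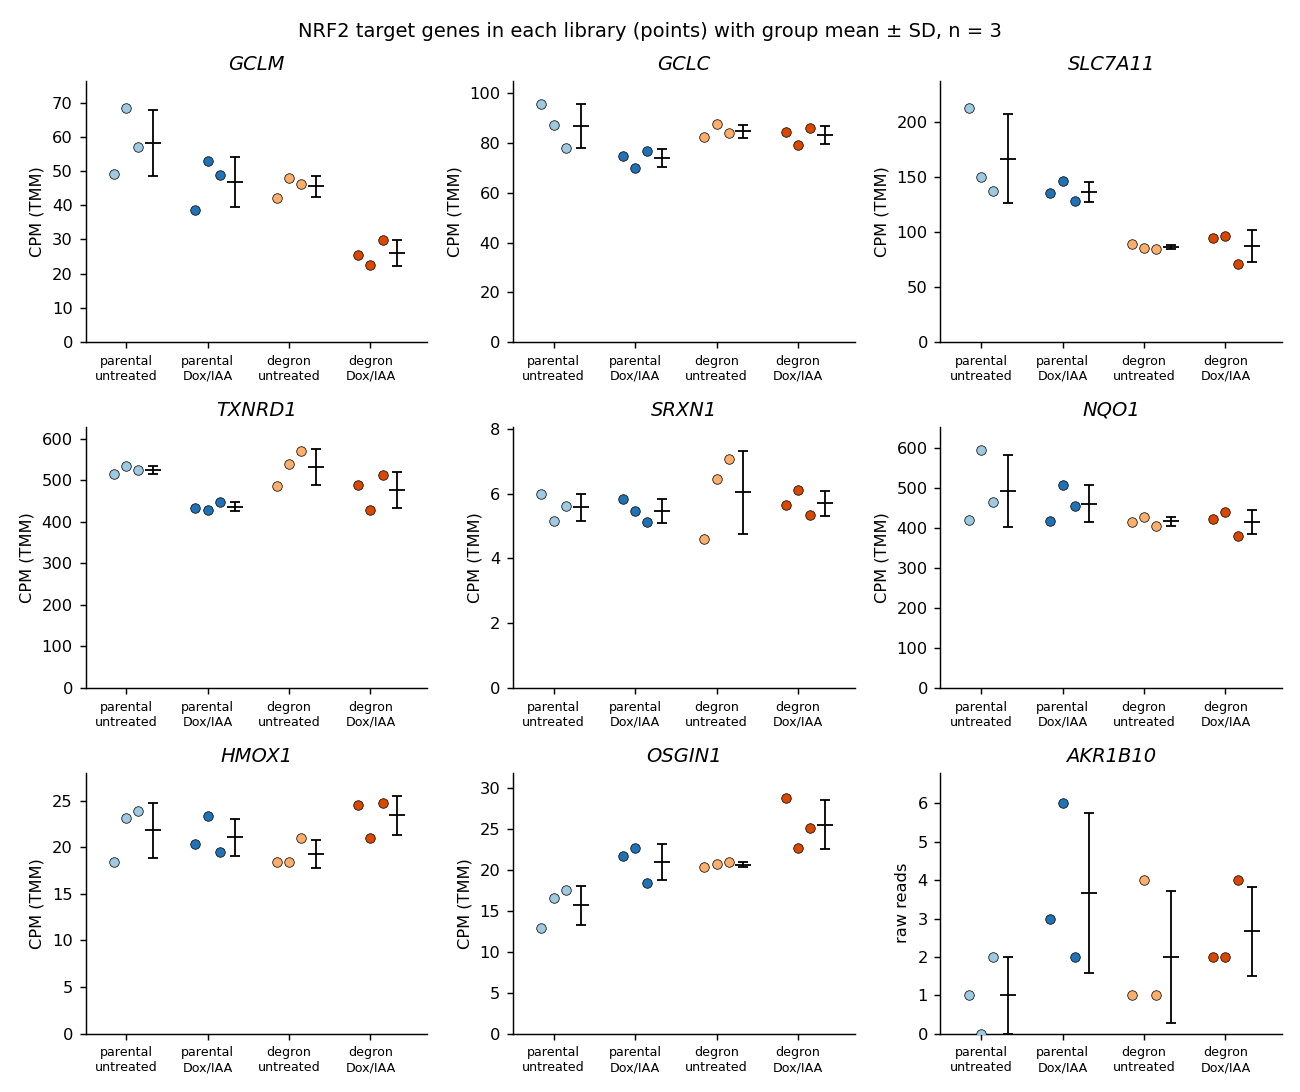
Level of each NRF2 target in each of the 12 libraries, with mean ± SD per group. The vertical axes give TMM-normalized CPM (raw reads for AKR1B10) and start at 0. GCLM lies between 22.5 and 29.9 CPM in treated degron cells and at 38.5 CPM or more in all other libraries, and SLC7A11 stays below 100 CPM in the 6 degron libraries.

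GCLM was the member with the largest response to Dox/IAA in degron cells. It encodes the modifier subunit of glutamate-cysteine ligase, which lowers the substrate needs of the catalytic subunit GCLC and eases its inhibition by glutathione. Untreated degron cells had 42.2, 48.1 and 46.2 CPM of GCLM. After Dox/IAA, their levels were 25.6, 22.5 and 29.9 CPM. All treated libraries were thus lower than all untreated ones, and GCLM fell to 57.0% of the untreated level (log2 fold change -0.81, SE 0.131, 95% CI -1.09 to -0.54, adjusted p = 4.53e-05). Adjusted p-values are, here and throughout, from edgeR's quasi-likelihood F test with Benjamini-Hochberg adjustment over 16657 genes, with a call under 0.05. In bulk RNA, fewer cells with the transcript and less transcript per cell cannot be told apart.

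In parental cells, GCLM was at 49.2, 68.3 and 56.9 CPM without treatment and at 38.5, 52.9 and 48.9 CPM with Dox/IAA. Each treated library was lower than the untreated library of its number, although the groups overlapped. In the fit without a replicate block, the difference of -0.32 (SE 0.124, 95% CI -0.58 to -0.06) was not called (adjusted p = 0.0591). It was called with the replicate number as a block (-0.32, adjusted p = 0.0176), and without the untreated parental library 1 (adjusted p = 0.0183) or the treated parental library 2 (0.0212). Without the untreated parental library 2 it was -0.18 (adjusted p = 0.312), and without the treated parental library 1 it was -0.19 (0.283). Between the treated lines, GCLM was lower in degron cells, at 55.5% of the parental level (log2 fold change -0.85, SE 0.131, adjusted p = 3.91e-05), and the libraries did not overlap. It was already lower in untreated degron cells, at 78.2% (log2 fold change -0.35, SE 0.123, adjusted p = 0.0385), again without overlap. That last call was lost without the untreated parental library 2 (-0.20, adjusted p = 0.255) or 3 (0.0634), without the untreated degron library 1 (0.141), 2 (0.0587) or 3 (0.0797), and without the treated degron library 1 (0.0581).

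The interaction of GCLM was -0.49 (SE 0.18, 95% CI -0.87 to -0.12), with an unadjusted p of 0.0131 and an adjusted p of 0.0741. The greater fall in degron than in parental cells therefore did not pass the threshold in the fit without the block. The adjusted p came under 0.05 without the untreated parental library 2 (0.0143) or the treated parental library 1 (0.018). Leaving out the treated degron library 3 (0.0425) or adding the replicate block (-0.49, adjusted p = 0.0226) did so too. In deviations from the group means, 12 of 12 libraries correlated best with their own number. Correlations were above 0.1 in 7 of 18 pairs with the same number, so pairing over all 4 groups was left uncertain. Over 21 alternatives the adjusted p of the interaction ranged from 0.00371 to 0.188. Genes of chromosome 1 within 5 Mb of GCLM had a median log2 fold change of 0.02 upon Dox/IAA in degron cells (59 genes tested), and of -0.13 between the untreated lines.

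GCLC, the catalytic subunit, had a different pattern. Its levels were 82.6, 87.6 and 83.9 CPM in untreated degron cells and 84.4, 79.1 and 86.0 CPM after Dox/IAA. The groups overlapped, and the 95% CI of the log2 fold change ran from -0.18 to 0.13 (adjusted p = 0.785). In parental cells, GCLC was at 95.7, 87.3 and 78.0 CPM, and at 74.8, 69.9 and 76.9 CPM after Dox/IAA. All treated parental libraries were lower than the untreated ones (log2 fold change -0.24, SE 0.0749, adjusted p = 0.0226), a call that was lost without the untreated parental library 1 (0.107) or the treated parental library 2 (0.0747). Between the treated lines GCLC was 0.17 (log2) higher in degron cells, without overlap but with an adjusted p of 0.0729, and its interaction was 0.21 (95% CI -0.01 to 0.43, adjusted p = 0.2).

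The ratio of both subunit transcripts was taken within each library, per length. GCLM to GCLC was 0.803, 1.22 and 1.14 in untreated and 0.804, 1.18 and 0.992 in treated parental cells. It was 0.798, 0.857 and 0.861 in untreated degron cells and 0.473, 0.443 and 0.543 in treated ones. The means were 1.06 ± 0.222, 0.993 ± 0.189, 0.838 ± 0.0351 and 0.486 ± 0.0512 (SD, n = 3), respectively. The treated degron libraries had the lowest ratios of all, and the ratios of the other 3 groups overlapped. The ratio is given as a description with no test of its own.

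**Figure D2:**
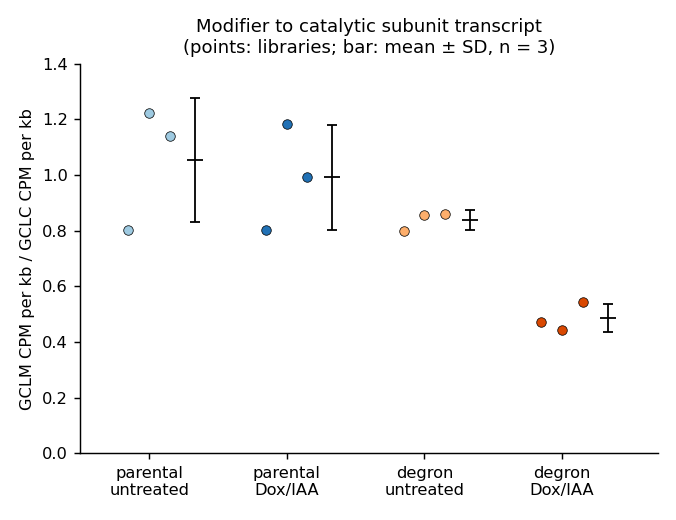
Ratio of GCLM to GCLC transcript, both in CPM per kb, in each library (points) with mean ± SD (n = 3) per group. The 3 treated degron libraries lie between 0.443 and 0.543, and the other 9 libraries between 0.798 and 1.22.

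SLC7A11 was lower in the degron line, with and without Dox/IAA. It encodes the light chain of the cystine and glutamate exchanger xCT, which imports the cystine that glutathione synthesis consumes. Untreated parental cells had 213, 150.3 and 137.8 CPM, and untreated degron cells 89.2, 85.8 and 85.0 CPM. The groups were far apart, with degron cells at 51.9% of the parental level (log2 fold change -0.95, SE 0.129, 95% CI -1.22 to -0.68, adjusted p = 2.71e-05). After Dox/IAA, parental cells had 135.4, 146.6 and 128.9 CPM and degron cells 94.6, 96.8 and 71.2 CPM. The treated degron level was 63.9% of the treated parental level (log2 fold change -0.65, SE 0.129, adjusted p = 0.000514), once more without overlap.

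Within the degron line, Dox/IAA left SLC7A11 with a log2 fold change of 0.02 (95% CI -0.26 to 0.29, adjusted p = 0.933). In parental cells the value without the block was -0.29 (95% CI -0.55 to -0.02, adjusted p = 0.0949). The groups overlapped, although each treated library was lower than the untreated one of its number. The untreated parental library 1 was the highest of all, and without it the parental effect was -0.08 (adjusted p = 0.604). Without the untreated parental library 3 that effect was -0.41 (adjusted p = 0.0228), and with the replicate block it was -0.27 (0.0364), both of which were called. The interaction was 0.30 (95% CI -0.08 to 0.68, adjusted p = 0.294), and it was 0.08 (0.78) without the untreated parental library 1. The line difference in untreated cells was -0.73 or lower whichever library was left out. Genes within 5 Mb of SLC7A11 on chromosome 4 (27 tested) had medians of -0.01 and -0.09 between the untreated and the treated lines, respectively. The antisense gene SLC7A11-AS1 had 10 reads over all libraries.

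TXNRD1 fell slightly with Dox/IAA in parental cells. Its enzyme reduces thioredoxin with NADPH. The levels were 514.3, 533.7 and 524.9 CPM in untreated and 432.4, 427.8 and 448.5 CPM in treated parental cells. These values did not overlap, and the treated level was 83.2% of the untreated one (log2 fold change -0.27, SE 0.0735, adjusted p = 0.0102). In degron cells TXNRD1 was at 486.7, 539.6 and 570.9 CPM without and at 488.7, 429 and 513.3 CPM with Dox/IAA, which overlapped (log2 fold change -0.16, SE 0.0734, adjusted p = 0.0792). Without the untreated parental library 2 (adjusted p = 0.0488), the untreated degron library 1 (0.0299) or the treated degron library 3 (0.023), the effect in degron cells was called. The interaction was 0.11 (95% CI -0.11 to 0.32, adjusted p = 0.541). Between the lines TXNRD1 was not called, but without the treated degron library 2 it was higher in treated degron cells (0.20, adjusted p = 0.0414). The pseudogene RPL18AP3 lies within TXNRD1 on the same strand and had 2927 to 5243 reads per library, and reads from that stretch cannot be reassigned here.

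SRXN1 encodes sulfiredoxin, which restores over-oxidized peroxiredoxins. It was the weakest of the tested members, with 5.99, 5.16 and 5.60 CPM in untreated parental, 5.85, 5.45 and 5.11 in treated parental, 4.59, 6.47 and 7.06 in untreated degron and 5.64, 6.12 and 5.35 CPM in treated degron cells. All groups overlapped, and it was called in none of the 5 comparisons (adjusted p between 0.643 and 0.92). Its SEs of 0.158 to 0.228 were the largest among the tested members, and the 95% CI for Dox/IAA in degron cells ran from -0.41 to 0.25.

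NQO1, which reduces quinones and is among the most used NRF2 readouts, was abundant in all cells. Untreated degron cells had 414.8, 428.6 and 405.8 CPM and treated ones 423, 439.7 and 380.3 CPM. The groups overlapped, with a log2 fold change of -0.0072 and a 95% CI of -0.22 to 0.21 (adjusted p = 0.959). Parental cells had 419.6, 593.9 and 464.9 CPM without and 418.1, 508.7 and 456 CPM with Dox/IAA, which also overlapped (log2 fold change -0.10, adjusted p = 0.506). In both parental groups library 2 was the highest, and without the untreated one the value was 0.06 (adjusted p = 0.641).

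NQO1 lies on chromosome 16, where many genes had lower counts in the degron line. The other 725 tested genes of the chromosome had a median log2 fold change of -0.30 between the untreated lines and -0.31 between the treated lines. The 130 tested genes within 5 Mb of NQO1 had medians of -0.34 and -0.34. NQO1 itself was at -0.24 (95% CI -0.46 to -0.03, adjusted p = 0.0827) and -0.15 (adjusted p = 0.235) in these comparisons, and it was called between the untreated lines without the untreated parental library 1 (-0.34, adjusted p = 0.0207). Without the untreated parental library 2 the difference was -0.07 (adjusted p = 0.613). With all libraries it lay 0.10 and 0.18 (log2) above the medians of its neighbours. The part of the chromosome in the line difference of NQO1 was not tested.

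HMOX1, the inducible haem oxygenase, also responds to heat shock factors and to the loss of BACH1. In untreated degron cells it was at 18.4, 18.4 and 20.95 CPM, and after Dox/IAA at 24.5, 20.98 and 24.8 CPM. The highest untreated and the lowest treated library (20.95 and 20.98 CPM) almost met. HMOX1 rose 1.22-fold (log2 fold change 0.28, SE 0.111, 95% CI 0.05 to 0.52, adjusted p = 0.0406). The call was lost without the untreated degron library 1 (adjusted p = 0.12) or 2 (0.128), the treated degron library 1 (0.139) or 3 (0.167), the untreated parental library 2 (0.056) or the treated parental library 1 (0.0622), and with a correction for GC content (0.0841).

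In parental cells HMOX1 was at 18.4, 23.1 and 23.9 CPM without and at 20.4, 23.3 and 19.5 CPM with Dox/IAA. These overlapped (log2 fold change -0.05, 95% CI -0.29 to 0.18, adjusted p = 0.764). The interaction was 0.33 (95% CI 0.0033 to 0.67), with an unadjusted p of 0.048 and an adjusted p of 0.17. Neither comparison between the lines called HMOX1 (0.15 between treated and -0.18 between untreated lines, adjusted p = 0.282 and 0.248).

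OSGIN1, known as an oxidative stress-induced growth inhibitor, was higher with Dox/IAA in both lines. Parental cells had 12.9, 16.6 and 17.5 CPM without and 21.7, 22.6 and 18.4 CPM with Dox/IAA. Degron cells had 20.3, 20.7 and 20.9 CPM without and 28.7, 22.7 and 25.1 CPM with it. In neither line did the groups overlap. The log2 fold change was 0.41 in parental (SE 0.12, adjusted p = 0.0132) and 0.31 in degron cells (SE 0.114, adjusted p = 0.0306), and the interaction was -0.11 (95% CI -0.45 to 0.24, adjusted p = 0.718). The call in degron cells was lost without any 1 of the untreated degron libraries 1, 2 and 3 (adjusted p = 0.0809, 0.0694 and 0.0617) or the treated degron libraries 1 and 3 (0.191 and 0.0711), and with a GC correction (0.0879). The value without the treated degron library 1 was 0.20. The call in parental cells was lost without the untreated parental library 1 (0.0806).

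OSGIN1 was also higher in the degron than in the parental line. The log2 fold change was 0.40 between untreated (SE 0.119, adjusted p = 0.0185) and 0.29 between treated cells (SE 0.114, adjusted p = 0.0478), without overlap in either. The former call was lost without the untreated parental library 1 (0.091) or the untreated degron libraries 2 (0.053) and 3 (0.0517). The latter was lost in 10 of 22 alternatives. These include leaving out the treated parental libraries 1 (0.0705) and 3 (0.204), the treated degron libraries 1 (0.216) and 3 (0.0834), and the untreated degron libraries 1 (0.0605), 2 (0.0614) and 3 (0.0589). OSGIN1 lies on chromosome 16 as well, and the 61 tested genes within 5 Mb had medians of -0.09 and -0.16 in these comparisons, below its own values. Both OSGIN1 (59.1%) and HMOX1 (58.0%) had a higher GC content than the other members, and GCLM (38.6%) and SLC7A11 (35.4%) the lowest.

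AKR1B10, an aldo-keto reductase that is strongly induced by NRF2 in several carcinomas, was hardly detected. It had 1, 0 and 2 reads in untreated and 3, 6 and 2 in treated parental cells, and 1, 4 and 1 in untreated and 2, 2 and 4 reads in treated degron cells. The sums were 3, 11, 6 and 8 reads, with exact Poisson 95% intervals of 0.619 to 8.77, 5.49 to 19.7, 2.2 to 13.1 and 3.45 to 15.8, which cover counting error only. All intervals overlapped. In the library without reads, a floor of 3 reads corresponds to 0.229 CPM. AKR1B10 did not pass the filter on low counts. When genes of all levels were tested, its adjusted p lay between 0.268 and 0.804 in the 5 comparisons. Of its close relatives, AKR1B1 had 5921 reads over all libraries, AKR1B15 had 0 and the pseudogene AKR1B10P1 had 8, and reads that such copies share cannot be assigned with certainty.

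In total, Dox/IAA in degron cells called 2 members higher (HMOX1 and OSGIN1) and 1 lower (GCLM) of 8, beside 26% higher, 25.5% lower and 51.5% in either direction among all genes tested. In parental cells, 1 was higher (OSGIN1) and 2 were lower (GCLC and TXNRD1), beside 15.9%, 15.7% and 31.6%. The replicate block gave 4 lower members there, with GCLM and SLC7A11 added. Between the treated lines, 1 was higher (OSGIN1) and 2 were lower (GCLM and SLC7A11) in degron cells, beside 21.8%, 23.1% and 44.9%. The untreated lines gave a call for these 3 genes in the same directions, beside 13.2%, 15% and 28.2%. These comparisons share groups, so their calls are not independent. The interaction called 0 members by edgeR without the block and 0 by DESeq2. These stand beside 6.03% of all genes higher, 8.35% lower and 14.4% in either direction. Of the members, 2 (GCLM and HMOX1) had an unadjusted p under 0.05. With the block, GCLM was called lower in the interaction.

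Without the block, each of the first 4 comparisons thus called 3 of 8 members. The median log2 fold change of the tested members was -0.02 upon Dox/IAA in degron cells and -0.17 in parental cells, and it was 0.09 between the treated and -0.11 between the untreated lines. The medians of all genes tested were all within 0.01 of 0. The groups did not overlap for 3, 3, 4 and 3 of the 8 members, respectively, beside 59.9%, 41.3%, 52.9% and 43.5% of all genes. No member passed the cut-off that the study used between the treated lines (an unadjusted p under 0.05 with a log2 fold change beyond 1 in either direction), which 7.83% of all genes passed upon Dox/IAA in degron cells, 3.14% in parental cells, 6.63% between the treated lines, 4.14% between the untreated lines and 3.60% in the interaction.

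**Figure D3:**
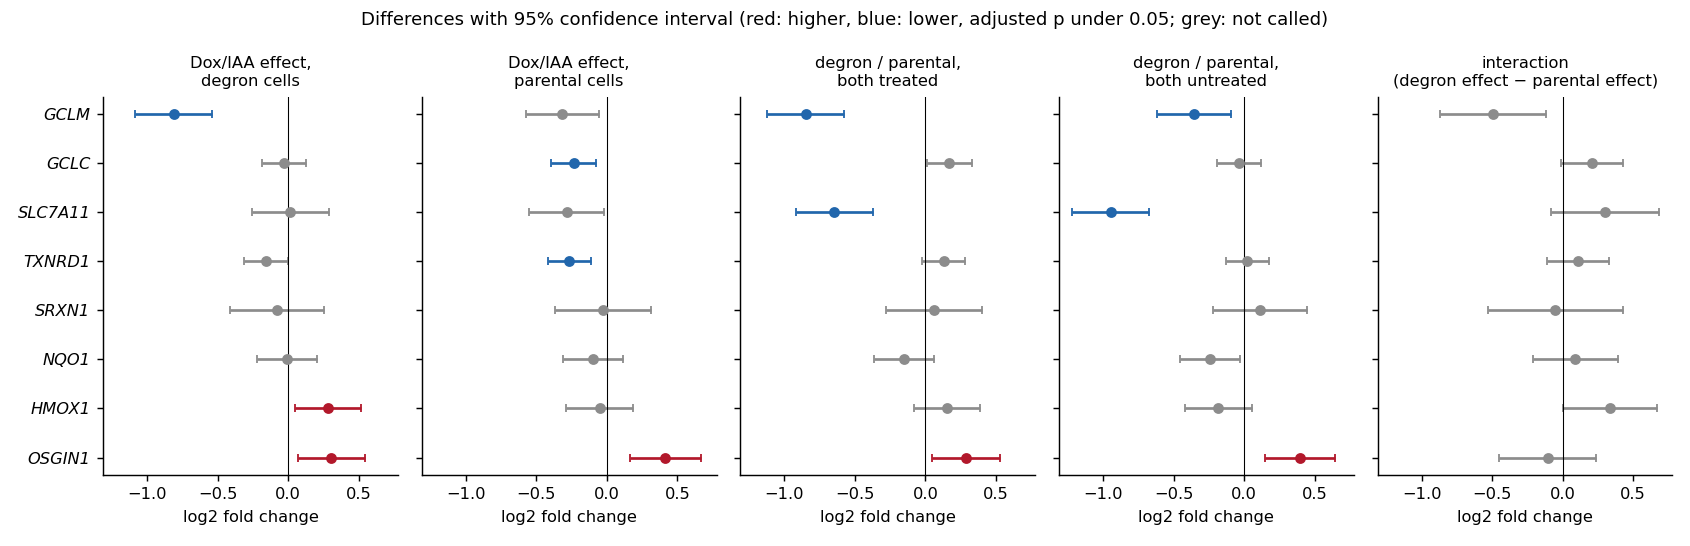
Log2 fold change of the 8 tested members with 95% confidence interval, in the 5 comparisons (red, called higher; blue, called lower; grey, not called). GCLM lies at -0.81 upon Dox/IAA in degron cells and at -0.85 between the treated lines, and the intervals of NQO1 and SRXN1 for Dox/IAA include 0 in both lines.

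The factors upstream of these genes were examined next, using a list of 15 genes for NRF2, its partners, its repressor and its degradation machinery. Upon Dox/IAA, 7 were higher and 2 lower in degron cells (median log2 fold change 0.09), beside 26% and 25.5% of all genes, and 7 were higher and 2 lower in parental cells (median 0.20), beside 15.9% and 15.7%. The number higher in parental cells was 2 to 8 over 22 alternatives, with 2 without the treated parental library 3, 3 without the untreated parental library 1 and 4 without the treated parental library 1. NFE2L2, which encodes NRF2, went from 181.9 ± 3.33 to 247.8 ± 18.1 CPM in degron cells (SD, n = 3, log2 fold change 0.45, adjusted p = 4.79e-05), and from 194 ± 5.12 to 228.5 ± 21.6 CPM in parental cells (log2 fold change 0.24, adjusted p = 0.0182). The related factor NFE2L1 rose by 0.46 and 0.21 (log2) in degron and parental cells, respectively. BACH1, the repressor of NRF2 targets, rose too, by 0.48 (adjusted p = 6.11e-05) and 0.29 (adjusted p = 0.00934). Transcripts of both the activator and its repressor were therefore higher with Dox/IAA in either line.

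KEAP1 fell by 0.28 (log2) in degron cells (adjusted p = 0.00312), while its change of -0.18 in parental cells was not called (adjusted p = 0.0708). PGAM5, a mitochondrial phosphatase that binds KEAP1, fell in both lines, by 0.81 (adjusted p = 1.58e-07) and 0.35 (adjusted p = 0.00222). It was the only gene of the list with a called interaction (-0.45, SE 0.111, adjusted p = 0.00996), to which the alternatives added 0 to 2 genes that were higher. Neither CUL3 nor RBX1 was called with Dox/IAA in either line. GSK3B and the ubiquitin ligase subunits BTRC and FBXW11, which form a second route to NRF2 degradation, were higher with Dox/IAA in both lines. Of the small MAF proteins that pair with NRF2, MAFF rose in degron cells (0.58, SE 0.177, adjusted p = 0.0102) and was at 0.42 in parental cells (0.0913), and MAFG rose in parental cells (0.28, adjusted p = 0.0197) and was at 0.01 in degron cells (0.909). MAFK (0.09 and 0.14, adjusted p = 0.473 and 0.308) and the KEAP1-binding peptidase DPP3 (0.04 and 0.03, adjusted p = 0.683 and 0.742) were not called in degron or parental cells. SQSTM1, which sequesters KEAP1 in autophagy, was lower in parental cells (log2 fold change -0.36, adjusted p = 0.00251) and at -0.08 in degron cells (adjusted p = 0.446). RNA levels do not show the amount or location of the NRF2 protein, which was not measured here.

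**Figure D4:**
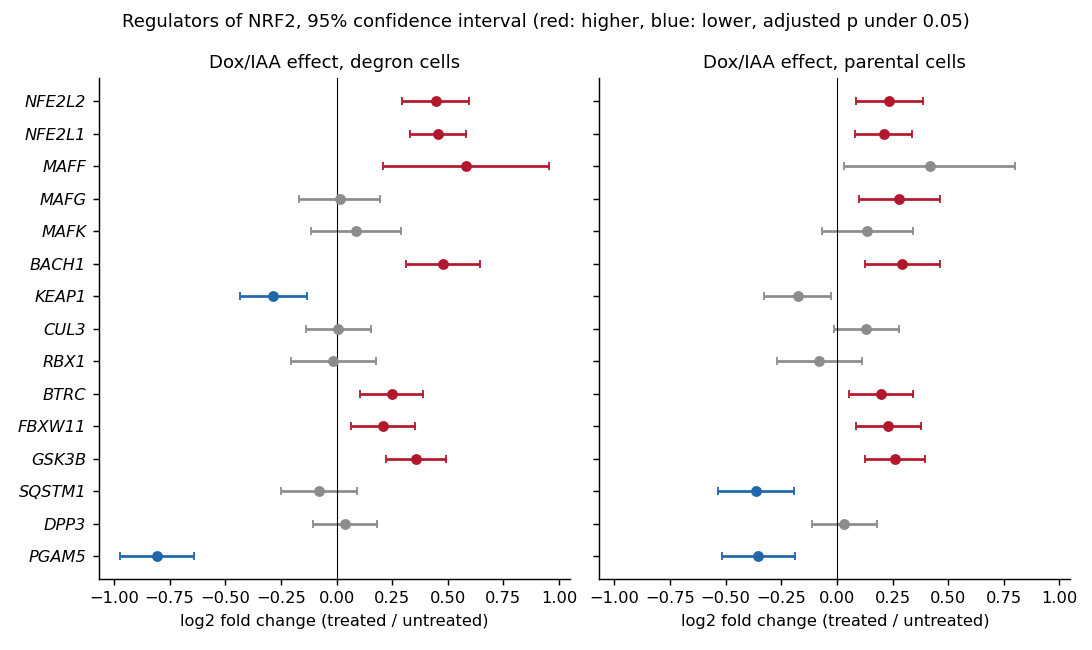
Log2 fold change upon Dox/IAA of 15 genes that control NRF2, with 95% confidence interval, in degron (left) and parental cells (right). NFE2L2 lies at 0.45 and 0.24, and PGAM5 at -0.81 and -0.35.

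Further genes that are generally counted as NRF2 targets included as many that were higher as lower with Dox/IAA. Of 41 listed, 33 were tested, of which 9 were higher and 9 lower in degron cells (median -0.06), beside 26% and 25.5% of all genes. In parental cells 8 were higher and 8 lower (median -0.04), beside 15.9% and 15.7%. Over 22 alternatives, 4 to 10 were higher and 4 to 10 lower in parental cells, with 4 higher without the untreated parental library 1, 5 higher without the treated parental library 1 or 3, and 5 lower without either of these or 4 without the untreated parental library 3. In degron cells, the smallest adjusted p were found for ABHD4, a phospholipase (log2 fold change 0.97), for the peroxiredoxin PRDX1 (-0.57) and for TKT, the transketolase of the pentose phosphate pathway (-0.44). In parental cells they were those of ABCC2, a pump for glutathione conjugates (-1.14), CYP4F11 (0.64) and TKT (-0.37). ABCC2 was at 159.9 ± 3.47 CPM without and 156.7 ± 12.3 CPM with Dox/IAA in degron cells, and its interaction was called (1.11, SE 0.195, adjusted p = 0.000922). In the interaction, 4 of the 33 were higher and 1 lower, beside 6.03% and 8.35%, and the number lower was 0 to 2 over 21 alternatives.

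Between the lines, more of these targets were lower than higher in degron cells. Without treatment 10 were lower and 1 was higher (median -0.16), beside 15% and 13.2% of all genes. With Dox/IAA 12 were lower and 5 higher (median -0.17), beside 23.1% and 21.8%. Over 22 alternatives, the number lower ranged from 8 to 11 without treatment and from 10 to 14 with it. The leading genes without treatment were the conjugate pumps ABCC1 (log2 fold change -0.65) and ABCC3 (-1.12) and PGD of the pentose phosphate pathway (-0.51), and with Dox/IAA they were ABHD4 (0.73), PRDX1 (-0.61) and CYP4F11 (-0.80). ABCC1 is a gene of chromosome 16, for which the lower median in degron cells is given above.

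Other genes of glutathione and thioredoxin metabolism moved both ways. In degron cells 8 of 29 were higher and 13 lower with Dox/IAA (median -0.10), beside 26% and 25.5% of all genes, led by GGT7 (log2 fold change 1.32), the microsomal transferase MGST2 (0.85) and PRDX1 (-0.57), which the preceding list holds too. In parental cells 3 were higher and 6 lower (median -0.12), beside 15.9% and 15.7%, led by SLC3A2, the heavy chain that pairs with SLC7A11 (-0.78), the glutathione-degrading enzyme CHAC1 (-1.80) and the glutamine carrier SLC1A5 (-0.33). CHAC1 was at 82.3 CPM in the untreated parental library 1, against 23.3 and 23.4 CPM in libraries 2 and 3. In treated parental cells it was at 13.7, 5.53 and 17.7 CPM. For the list in parental cells, the replicate block gave 11 lower, and 3 were lower without the treated parental library 3. SLC3A2 was lower in untreated degron than in untreated parental cells too (-0.68, adjusted p = 0.000479), as SLC7A11 was, but between the treated lines its difference was -0.0085 (adjusted p = 0.965). Between the untreated lines 0 of the 29 were higher by edgeR and 6 lower, beside 13.2% and 15%. Over 22 alternatives the number higher was 0 to 4. Between the treated lines 6 were higher and 4 lower, beside 21.8% and 23.1%, and in the interaction 7 and 2, beside 6.03% and 8.35%, with 0 to 7 lower over 21 alternatives. Antioxidant enzymes outside these systems (14 tested) gave 5 higher and 4 lower genes in degron cells, beside 26% and 25.5% of all genes. In parental cells 3 of them were higher and 2 lower with Dox/IAA, beside 15.9% and 15.7%. SESN3 led in both lines (2.64-fold and 1.89-fold higher).

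Some members also answer to other pathways, whose genes were counted for that reason. ATF4 and the amino acid response also act on SLC7A11. Of 19 genes of that response, which include SLC3A2 and CHAC1 of the preceding list, 17 were lower and 0 higher with Dox/IAA in parental cells (median -0.80), led by ASNS (-1.07), PSAT1 (-1.09) and SLC7A5 (-0.83). These stand beside 15.7% and 15.9% of all genes. Over 22 alternatives, 12 to 17 were lower and 0 to 1 higher. In degron cells 7 were lower and 3 higher (median 0.03), beside 25.5% and 26%, and over 22 alternatives 0 to 8 were higher, with 0 without the treated degron library 3 and 1 without the untreated degron library 1 or 2. The interaction was higher for 9 and lower for 0, with a median of 0.51, beside 6.03% and 8.35%. Over 21 alternatives the number higher in it was 5 to 14, with 5 without the untreated degron library 3 or the treated degron library 1. Between the untreated lines, where SLC7A11 was at 51.9% of the parental level, 11 of the 19 were lower and 0 higher in degron cells (median -0.33), beside 15% and 13.2%, and 7 were lower without the untreated parental library 1. Between the treated lines 2 were lower and 6 higher (median 0.25), beside 23.1% and 21.8%, and 2 were higher without the treated degron library 1 or 3 without the treated parental library 2. The summed level of the 19 genes was 5300, 3743 and 3953 CPM in untreated and 2643, 2317 and 2520 CPM in treated parental cells, and 3247, 3192 and 3289 CPM in untreated and 2778, 2392 and 2310 CPM in treated degron cells. The untreated parental library 1, which had the highest SLC7A11, thus had the highest sum too, and its DDIT3, a stress-induced factor of this list, was at 207.2 CPM against 13.9 and 20.4 CPM in the other untreated parental libraries. The part of the ATF4 pathway in the level of SLC7A11 was not tested.

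The aryl hydrocarbon receptor acts on NQO1, and indoles such as IAA belong to the class of compounds that can engage it. Of 9 tested genes, which include NQO1 and NFE2L2, 6 were higher and 0 lower with Dox/IAA in degron cells (median 0.48), beside 26% and 25.5% of all genes, and the counts were the same in parental cells (median 0.41), beside 15.9% and 15.7%. CYP1B1 was 6.56-fold higher in degron and 3.80-fold higher in parental cells, and AHRR was 3.00-fold and 2.05-fold higher. In the interaction 3 of the 9 were higher and 0 lower, beside 6.03% and 8.35%, namely CYP1B1 (0.79, adjusted p = 0.0296), AHRR (0.55, adjusted p = 0.0116) and TIPARP (0.49, adjusted p = 0.00211). NQO1 had log2 fold changes of -0.0072 and -0.10 in the same libraries, and the part of this receptor in the levels of NQO1 was not tested. The heat shock and AP-1 responses can also act on HMOX1, which is not among the 11 genes listed for them. With Dox/IAA 4 of these were higher and 3 lower in degron cells (median -0.11), beside 26% and 25.5% of all genes. In parental cells 1 was higher and 2 were lower (median -0.05), beside 15.9% and 15.7%. Over 22 alternatives, 1 to 5 were higher and 3 to 4 lower in degron cells. In parental cells these numbers were 0 to 2 and 0 to 3.

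Genes with levels most like those of the members that varied most were sought among 10851 genes with a mean of at least 10 CPM. Over the 12 libraries, ADAM15 (Pearson r = 0.987), DOHH (0.985) and DNAJC11 (0.977) were most like GCLM. DNAJC11, for example, had 132.5 and 113.2 CPM in untreated and treated parental cells, and 115.5 and 82.6 CPM in degron cells. HSPA13 (0.983), GDAP1 (0.962) and TOP2B (0.956) were most like SLC7A11, and HSPA13 had 73.7, 66.5, 46.7 and 49.0 CPM in the same order of groups. These correlations describe libraries that fall into 4 groups, and the points share line, treatment and depth.

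The genes lie as follows on GRCh38. NQO1 (ENSG00000181019) is at chr16:69706996-69726951 on the minus strand, and OSGIN1 (ENSG00000140961) at chr16:83948282-83966332 on the plus strand. GCLM (ENSG00000023909) is at chr1:93885205-93909456 and GCLC (ENSG00000001084) at chr6:53497341-53616970, both on the minus strand. SLC7A11 (ENSG00000151012) is at chr4:138164097-138242349 and SRXN1 (ENSG00000271303) at chr20:646615-653370, also on the minus strand. TXNRD1 (ENSG00000198431) is at chr12:104215779-104350305, HMOX1 (ENSG00000100292) at chr22:35380361-35394214 and AKR1B10 (ENSG00000198074) at chr7:134527592-134541408, all on the plus strand. Reads were counted per gene, so that exons and transcript forms are not told apart.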

How the data were processed

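Stranded, poly-A selected libraries from 12 samples were sequenced as single reads. The table that the authors deposited holds raw counts for each gene and library, not normalized, and for each gene its position, length and GC percent. The submitters' processing notes name cutadapt 1.15, Bowtie2 2.3.3.1, STAR 2.5.2b, SAMtools 1.5, featureCounts 1.5.3 and GRCh38. All columns could be mapped to a sample by its label. Between 12133915 and 14657508 reads were counted per library (median 12662965), of 58233 genes 30524 had at least 1 count, and 16657 passed filterByExpr (minimum count 10).

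Counts were normalized with TMM (factors 0.971 to 1.03) and fitted with edgeR 4.0.16 (R 4.3.3) with 4 group means, a quasi-likelihood F test and Benjamini-Hochberg adjustment over all genes tested. The median SE of a log2 fold change was 0.110, or 0.156 in the interaction, and the common biological coefficient of variation was 7.48%. CPM are TMM-normalized, and a prior count of 2 was added for log2 CPM in correlations. Each SE was obtained from the log2 fold change and the F statistic. The procedure was also run on simulated counts with differences planted in the treated degron libraries. These counts held no other line difference, no replicate effect and no deviating library, so the run does not cover such features. Members and gene lists were chosen with earlier results of these data known. All members are named, with at most 3 genes per further list and comparison (smallest adjusted p), all regulators of NRF2, and the 3 genes most correlated with each of the 2 members whose group means varied most. DDIT3 falls outside this rule, since it was named to describe the untreated parental library 1. ABCC2 and SLC3A2 were also given for a comparison in which they were not among these 3 genes. PPP1R7 and the cell type markers serve as checks. Deviations from the group means of libraries with the same number correlated by 0.124, 0.246 and 0.131 between the parental groups and by 0.101, 0.133 and 0.138 between the treated groups. The number was therefore taken to pair libraries in these comparisons, as a hint from the data, and not in the others (-0.0569 to 0.118). The main fit nevertheless has no block in any comparison. Values, calls and overlaps are thus unpaired unless the block is named, and the block was fitted as an alternative.

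Alternatives were edgeR's likelihood ratio test, DESeq2 1.42.0, library size only, upper quartile, no filter, a filter of 1 CPM, only the groups compared, a replicate block, a GC correction per library (loess span 0.3) with and without the block, each library left out, and the cut-off of the study.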

Additional observations from a re-analysis of the deposited data

How the results depend on the processing

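Of 872 values of members under alternatives, 803 stayed on the same side of the threshold, 41 lost and 28 gained a call, and 0 called values changed sign. GCLM upon Dox/IAA in degron cells (-0.94 to -0.72) and between the treated lines (-0.98 to -0.73), SLC7A11 between the untreated (-1.07 to -0.73) and treated lines (-0.72 to -0.52) and TXNRD1 in parental cells (-0.29 to -0.21) were called in all 22 alternatives. The calls of HMOX1 (14 of 22) and OSGIN1 (15 of 22) in degron cells, and those of OSGIN1 between treated lines (12 of 22) and GCLM between untreated lines (14 of 22), were not.

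Upon Dox/IAA in degron cells, the members called higher were 0 with the GC correction, alone or with the replicate block, and 0 at the cut-off of the study, where 0 were lower. Leaving out 1 library gave 0 to 2 higher and 1 to 2 lower. In parental cells, 1 member was lower with library size only or with only the groups compared, and 4 were lower with no filter, with the replicate block and with the GC correction alone or with the block. Without 1 library, 0 to 1 were higher and 2 to 3 lower. Between the treated lines, 2 were higher with the upper quartile and 0 with no filter or with the GC correction, alone or with the block, and 0 to 2 without 1 library. Between the untreated lines, 1 was lower with library size only or the upper quartile, and without 1 library 0 to 1 were higher and 1 to 3 lower. In the interaction, 1 member (GCLM) was lower with no filter (adjusted p = 0.00371), with the replicate block (0.0226) and with the GC correction and block (0.0182), and 0 to 1 without 1 library. At the cut-off of the study, 0 members were called in any comparison, and all genes called were 1305, 523, 1105, 689 and 600 in place of 8580, 5264, 7486, 4698 and 2396. With library size only, 64.1% in place of 50.5% of the calls in parental cells were higher. The causes of these changes were not tested.

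With the replicate block, calls were gained for GCLM (adjusted p = 0.0176) and SLC7A11 (0.0364) in parental cells, and no other call of a member changed there or between the treated lines. Correlations were above 0.1 in 7 of all 18 pairs with the same number, although 12 of 12 libraries correlated best with their own number. In the remaining comparisons the number was not taken to pair libraries. There the block added TXNRD1 (0.0495) in degron cells, giving 2 lower members, NQO1 between the untreated lines (0.025) and GCLM in the interaction.

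With 3 libraries per group and a median SE of 0.110, small differences could not be detected, and SRXN1 and AKR1B10 had few reads. Where leaving out a library left 2 in a group, the spread was shared with the other groups.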
